A study of Mus musculus with 54 samples.

Results

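The genes described here are 7 genes of macrophages, monocytes and dendritic cells (Mrc1, Slc40a1, Csf1r, Lyz2, Mpeg1, Plbd1 and Siglech), out of 55385 genes in the count tables, read in libraries made from purified naive CD4+ T cells. They were listed by name as markers of residual myeloid RNA in magnetically enriched as opposed to sorted cells, and several were chosen by their measured fall in reads between 0 h and 20 h of stimulation. The fall with time and the contrast of enriched with sorted cells are therefore descriptions below, given without a test. RNA from mouse naive CD4+ T cells of pooled lymph nodes and spleens (C57BL/6 background) was sequenced before stimulation (0 h) and after 4 h and 20 h on plate-bound anti-CD3 (3 µg/ml) with soluble anti-CD28 (1 µg/ml). The CD5/CD6 experiment holds 36 libraries from mice without Cd5 (Cd5-/-), without Cd6 (Cd6-/-), without both (Cd5-/-Cd6-/-) or without a deletion (WT), whose cells were enriched with a magnetic kit (EasySep), with 3 libraries per genotype and time. The LAT experiment holds 18 libraries, 3 per genotype and time, from Lat fl-dtr maT-Cre mice, in which a Cre transgene deletes Lat. There the WT cells are those that carry human diphtheria toxin receptor (hDTR+), the Lat-/- cells are hDTR-, and both were obtained by flow cytometric sorting. CD5 and CD6 are surface receptors of T cells, and LAT is the membrane adaptor that links the T cell receptor to downstream signaling. The mice were 8 to 10 wk old. The number of mice behind each library is not given in the sources used here, so p-values measure the spread between these libraries.

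Depth was 20554354 to 45222554 assigned reads per library in the CD5/CD6 experiment and 17784644 to 28501095 in the LAT experiment, so that 3 reads, the level taken as the floor, correspond to 0.0663 to 0.146 and to 0.105 to 0.169 CPM, the read count of a gene scaled to the size of its library with TMM factors. Markers of CD4 T cells were high in all unstimulated libraries, with a median Cd4 level of 1190 CPM in enriched cells and 1400 CPM in sorted cells. Unstimulated libraries 2 labelled Cd5-/- and Cd6-/- went against their labels. The one labelled Cd5-/- held Cd5 at 719.5 CPM, whereas libraries 1 and 3 of that label held 128.6 and 105.2 CPM, and the one labelled Cd6-/- held Cd6 at 1203 CPM, whereas libraries 1 and 3 held 349.5 and 251.4 CPM. Each of these libraries had the Cd5 and Cd6 levels of the other label, with Cd5 at 172.5 CPM in library 2 labelled Cd6-/- and Cd6 at 328.6 CPM in library 2 labelled Cd5-/-. Groups are named here by their labels, and results that rest on these libraries are given with and without them where a group is compared by its label. Lat stood at 213.6 to 292.0 CPM in unstimulated hDTR+ cells and at 11.56 to 19.07 CPM in hDTR- cells.

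Macrophages, monocytes and dendritic cells are phagocytes of spleen and lymph nodes that take up dead cells, senescent erythrocytes and microbes, and present antigen to T cells. Their growth factor receptors, scavenging receptors and lysosomal enzymes are not part of the program of a naive CD4+ T cell, so that reads of these genes in a T cell library are commonly used as a measure of RNA from other cells. Among the 7 genes, Csf1r encodes the receptor for the cytokines CSF1 and IL-34, which macrophages need to survive. Mrc1 encodes the mannose receptor, an endocytic receptor of tissue macrophages, and Slc40a1 encodes ferroportin, the exporter through which macrophages that recycle erythrocytes release iron. Lyz2 encodes lysozyme M, which cuts bacterial cell walls, and Mpeg1 encodes perforin-2, a pore-forming protein of phagocytes. Plbd1 encodes a phospholipase B-like protein of myeloid cells. Siglech encodes a sialic acid-binding lectin that marks mouse plasmacytoid dendritic cells and signals through the adaptor encoded by Tyrobp. In bulk RNA, fewer myeloid cells and less RNA per myeloid cell cannot be told apart.

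Lyz2 has a near-identical neighbor, Lyz1, 5.48 kb away, and their sequences are shown because they set what a 50-base read can tell. Of the 1267 windows of 50 bases in the longest Lyz2 transcript, 195 (15.4%) also occur in a Lyz1 transcript. Within the coding sequences, each 444 bases long, 422 bases (95%) are identical. The first line below is a window found in both genes, coding bases 211 to 260, and the other lines are the window at coding bases 77 to 126 where the genes differ most, with the 8 differing bases in capitals.
Lyz2 and Lyz1, shared: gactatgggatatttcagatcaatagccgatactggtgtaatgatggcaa
Lyz2: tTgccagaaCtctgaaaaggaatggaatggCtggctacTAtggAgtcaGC
Lyz1: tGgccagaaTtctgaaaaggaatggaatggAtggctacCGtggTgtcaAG
A read from the shared window cannot be given to Lyz2 or Lyz1 by its letters, whereas a read from the second window can. How the counting treated such reads is not given in the sources used here, so the Lyz2 level is uncertain to that extent.

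For Mrc1, which had the most matches to a motif of myeloid transcription factors among the promoters at hand, the stretch before the RefSeq start of the gene is shown (RefSeq, GRCm38.p6, chr2:14229164-14229413, plus strand). Its end reaches past 14229392, the earlier start that the GENCODE annotation gives, and it is printed, with GAGGAA, the core bound by PU.1 and related ETS factors, in capitals as it reads on this strand.
Mrc1 promoter: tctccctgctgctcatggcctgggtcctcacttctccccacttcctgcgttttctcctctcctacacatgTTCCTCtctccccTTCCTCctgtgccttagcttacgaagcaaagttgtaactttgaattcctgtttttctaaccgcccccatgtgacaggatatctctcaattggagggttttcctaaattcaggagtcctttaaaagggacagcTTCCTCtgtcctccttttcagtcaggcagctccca
The promoter table held 5 of the 7 genes (not Slc40a1 and Csf1r), and windows of the same length were searched on both strands. GAGGAA occurred 3 times in the Mrc1 window, starting 180, 167 and 35 bases before the RefSeq start, in none of the other 4, and in 23.3% of 32851 promoters. The longer form GAGGAAGT, which contains GAGGAA, was in none of the 5 and in 2.44% of all promoters, and TTGCNNAA, a relaxed form of the C/EBP site, was in the Siglech promoter alone of the 5 and in 9.56% of all promoters. These matches are descriptions of letters and no binding was measured.

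All 7 genes are protein coding, and their coordinates are on GRCm38. Mrc1 (ENSMUSG00000026712.3) spans 14229392 to 14332057 on chromosome 2, plus strand, and Slc40a1 (ENSMUSG00000025993.10) spans 45908068 to 45926523 on chromosome 1, minus strand. Csf1r (ENSMUSG00000024621.16) lies on chromosome 18, 61100598 to 61132149, plus strand, and overlaps Hmgxb3 on the other strand, with 824 of its 5776 windows of 50 bases (14.3%) shared with another gene. Since the strand setting of the counting is not given in the sources used here, reads of this overlap could be assigned to either gene. Lyz2 (ENSMUSG00000069516.8) spans 117277331 to 117282321 on chromosome 10, minus strand, and Plbd1 (ENSMUSG00000030214.7) spans 136612070 to 136661928 on chromosome 6, minus strand. Siglech (ENSMUSG00000051504.18) lies at 55768178 to 55778925 on chromosome 7, plus strand, with 0.389% of its windows shared with another gene. Mpeg1 (ENSMUSG00000046805.10) lies at 12460779 to 12465283 on chromosome 19, plus strand, 1.72 Mb from Cd5 and 1.63 Mb from Cd6, the genes deleted in this experiment. Mrc1, Slc40a1, Plbd1 and Mpeg1 shared no such window with another gene.

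All 7 genes had reads in each of the 12 unstimulated enriched libraries. Starting with the receptors, Csf1r stood at 31.9, 43.3 and 61.8 CPM in WT libraries 1, 2 and 3, and over the 12 libraries of all genotypes it ranged from 17.5 to 112 CPM (median 40.4). Mrc1 stood at 11.3, 19.0 and 16.5 CPM in WT libraries and between 5.38 and 28.6 CPM over the 12 (median 14.4). Slc40a1 stood at 35.9, 56.2 and 69.4 CPM in WT libraries and between 18.9 and 162 CPM over the 12 (median 51.6). For Csf1r and Slc40a1 WT library 1 was the lowest of the WT libraries and library 3 the highest, whereas Mrc1 was highest in WT library 2. Library 3 labelled Cd6-/- held the highest level of these 3 genes and library 1 labelled Cd5-/- the lowest.

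Among the effector genes, Lyz2 stood at 58.6, 39.1 and 157.5 CPM in WT libraries 1, 2 and 3, and between 18.9 and 196 CPM over the 12 unstimulated libraries (median 44.2). Mpeg1 stood at 40.7, 41.0 and 70.3 CPM in WT libraries and between 14.7 and 96.6 CPM over the 12 (median 40.8). Plbd1 stood at 8.95, 8.34 and 19.9 CPM in WT libraries and between 3.81 and 25.9 CPM over the 12 (median 8.64). In these 3 genes WT library 3 was well above the other WT libraries, which differed little for Mpeg1 and Plbd1. Siglech had the fewest reads of the 7 genes, at 0.998, 1.14 and 3.25 CPM in WT libraries (30, 38 and 134 reads) and between 0.162 and 3.25 CPM over the 12 (median 0.914).

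Levels of different genes were compared per kilobase of transcript (RPKM). By the median of the 12 unstimulated enriched libraries, the order was Lyz2 (33.6 RPKM), Mpeg1 (9.42), Csf1r (7.00), Slc40a1 (5.74), Plbd1 (3.28), Mrc1 (2.26) and Siglech (0.270). Each gene was above the next one in 12, 11, 12, 12, 11 and 12 of the 12 libraries, taken down the order, so that the order within a library was stable while the ranges over libraries of neighboring genes overlapped. At 4 h the order became Lyz2 (6.93 RPKM), Mpeg1 (1.79), Csf1r (0.717), Plbd1 (0.489), Slc40a1 (0.129), Mrc1 (0.123) and Siglech (0.100). The last 3 could not be ordered, since Slc40a1 was above Mrc1 in 6 of 12 libraries and Mrc1 above Siglech in 7 of 12.

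**Figure D1:**
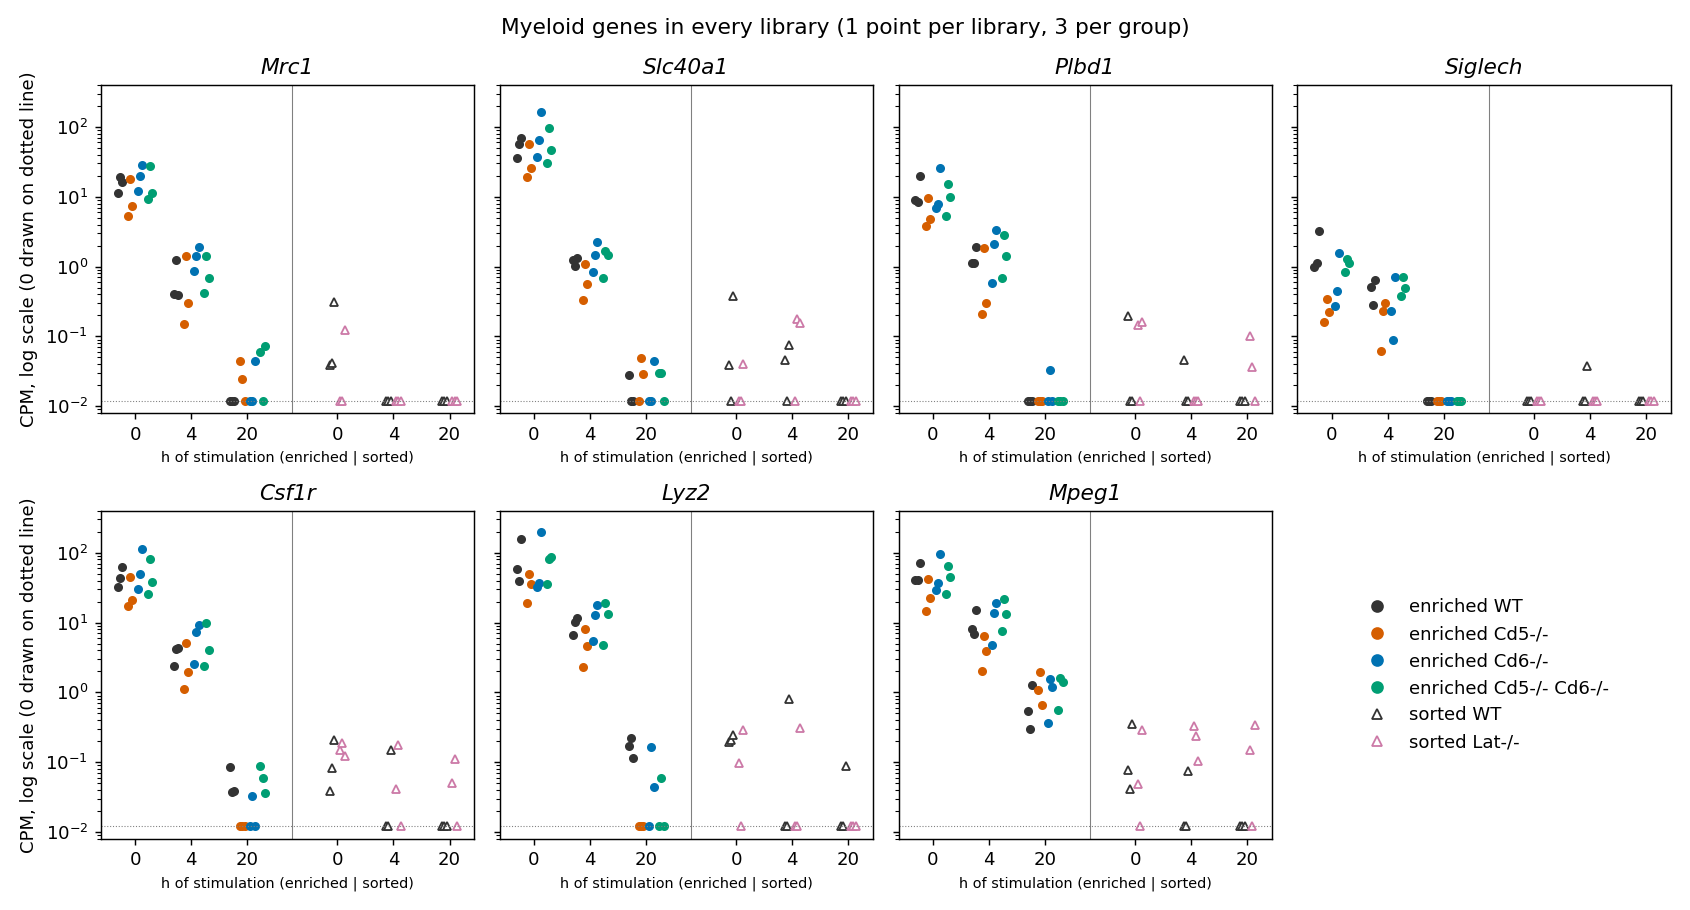
Level of each of the 7 myeloid genes (CPM, logarithmic axis, with libraries below the axis limit drawn at its foot) in every library by experiment, genotype and time. Each point is 1 library. The enriched libraries start at medians between 0.914 CPM (Siglech) and 51.6 CPM (Slc40a1) at 0 h and fall through 4 h to 20 h, whereas the sorted libraries lie at or near 0 throughout.

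Sorted cells held few reads of these genes at any time. Over the 6 unstimulated sorted libraries together there were 14 reads of Mrc1, 13 of Slc40a1, 19 of Csf1r, 26 of Lyz2, 21 of Mpeg1, 12 of Plbd1 and 0 of Siglech. WT library 3 carried 9 of the Mrc1 reads, 11 of the Slc40a1 reads and 10 of the Mpeg1 reads. Summed over the 7 genes, the unstimulated level was 0.588, 0.372 and 1.51 CPM in sorted WT libraries 1, 2 and 3, against 188, 208 and 399 CPM in enriched WT libraries. The ranges of the groups did not overlap, and the ratio of the WT medians was 353.6. Over all genotypes the summed level lay between 79.3 and 623 CPM in 12 enriched libraries and between 0.186 and 1.51 CPM in 6 sorted libraries. The enrichment method, the mouse line and the experiment cannot be told apart in this comparison. The ratio was 430.7 without Lyz2 and 280.3 to 412.7 when 1 library number was left out, but it was 127.8 when the mean of the log2 levels (with a prior count of 2) was used in place of the summed level.

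At 4 h of stimulation all 7 genes stood lower in enriched WT cells, by unequal amounts. Slc40a1 had fallen to 1.23, 1.01 and 1.35 CPM in WT libraries 1, 2 and 3, which pooled is 2.12% of its unstimulated level, 47.2-fold lower (95% counting interval 39.3 to 57.2). Mrc1 had fallen to 0.409, 1.24 and 0.390 CPM (4.62% left, 21.6-fold lower, interval 17.1 to 27.8). Csf1r had fallen to 2.39, 4.25 and 4.26 CPM (7.72% left, 13.0-fold lower, interval 11.6 to 14.5). Slc40a1, Mrc1 and Csf1r kept the smallest shares. In all 7 genes the highest WT library at 4 h was below the lowest at 0 h. Intervals here are exact binomial intervals that cover counting error only and not the spread between libraries.

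Plbd1 stood at 1.13, 1.11 and 1.88 CPM in WT libraries at 4 h, which is 10.2% of the unstimulated level. Lyz2 stood at 6.64, 10.3 and 11.6 CPM, or 10.4% (9.62-fold lower, interval 9.00 to 10.3), and Mpeg1 stood at 8.00, 6.78 and 15.2 CPM, or 18.3%. Siglech stood at 0.504, 0.285 and 0.639 CPM (16, 11 and 18 reads), or 23.6% (4.23-fold lower, interval 3.05 to 5.99). Effector genes thus kept more of their reads than Slc40a1 and Mrc1 did, and over the 4 genotypes the range of Slc40a1 (2.00% to 2.31%) lay below those of Lyz2 (10.4% to 18.5%) and Mpeg1 (16.7% to 33.2%). Mrc1 kept 4.62% to 7.41%, Csf1r 7.72% to 12.6%, Plbd1 10.2% to 17.9% and Siglech 23.6% to 80.1%, the last from 17 to 54 reads per genotype at 4 h. Without the unstimulated libraries 2 that went against their labels, the share of Slc40a1 was 2.98% in cells labelled Cd5-/- and 1.90% in cells labelled Cd6-/-, that of Mrc1 10.3% and 7.78%, that of Csf1r 14.9% and 10.7% and that of Plbd1 19.4% and 14.5%. In the same cells that of Lyz2 was 18.3% and 13.6%, that of Mpeg1 22.5% and 23.5%, and that of Siglech 97.2% and 47.1%. In WT cells 11.1% of all 32290 genes tested were lower by more than 2-fold at 4 h (adjusted p under 0.05), and since the fall chose several of these genes nothing is read from the comparison with that share.

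**Figure D2:**
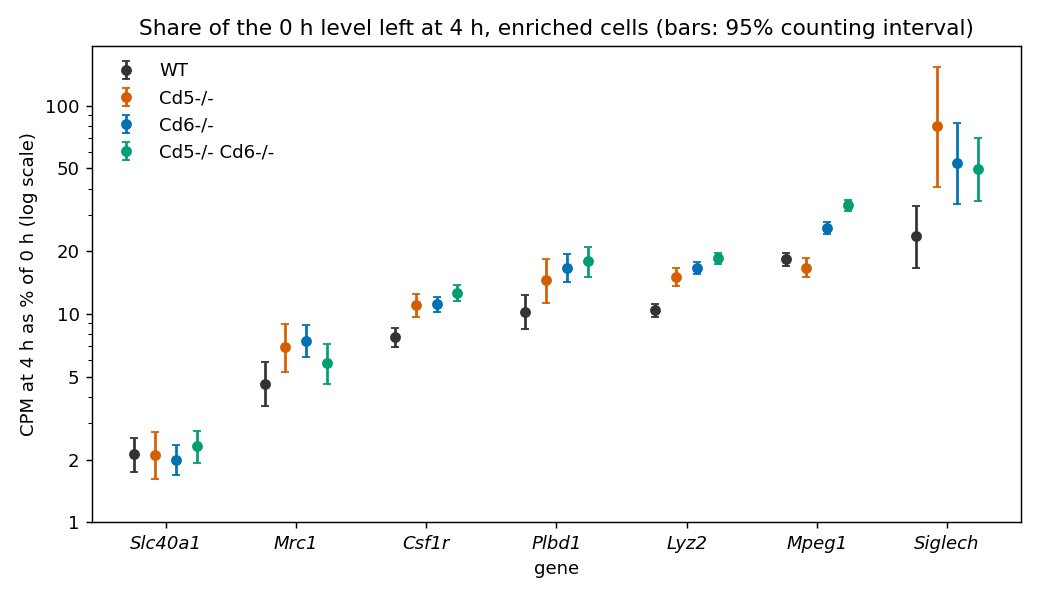
Share of the unstimulated level left at 4 h (percent, logarithmic axis) for each of the 7 genes in the 4 genotypes of enriched cells, from reads pooled over 3 libraries, with 95% counting intervals as bars. Slc40a1 lies at 2.00% to 2.31% in all genotypes, and Mpeg1 at 16.7% to 33.2%.

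At 20 h most of these genes were at or under the floor. Over the 12 enriched libraries of all genotypes, Siglech was without reads in 12, Plbd1 in 11, Mrc1 in 7, Slc40a1 and Lyz2 in 6 and Csf1r in 5. In WT cells Mrc1, Plbd1 and Siglech had 0 reads in all 3 libraries, so that they were at least 468-fold, 387-fold and 57.3-fold lower than at 0 h, respectively, against a floor of 3 reads over the group. Slc40a1 had 1, 0 and 0 reads (a ratio of 4940, interval 886 to 195000), Csf1r had 3, 1 and 1 reads (841-fold lower, interval 360 to 2590) and Lyz2 had 6, 6 and 3 reads (542-fold lower, interval 328 to 968). Mpeg1 was the exception, with 19, 8 and 33 reads in WT libraries and reads in all 12 libraries, at 0.295 to 1.98 CPM (median 1.14). Its level was 77.7-fold lower than at 0 h in WT cells (interval 60.3 to 102), 38.6-fold lower in Cd5-/-Cd6-/- cells (31.9 to 47.0), 45.5-fold lower in cells labelled Cd6-/- (36.8 to 56.9) and 19.2-fold lower in cells labelled Cd5-/- (16.0 to 23.1). Without the unstimulated libraries 2 that went against their labels the last values were 49.8-fold (40.3 to 62.4) and 14.3-fold (11.9 to 17.2). The summed level of the 7 genes was 0.370 to 2.06 CPM at 20 h in enriched libraries. The share of all genes called lower at 20 h was 17.3% in WT cells, 17.5% in cells labelled Cd5-/-, 16.8% in cells labelled Cd6-/- and 18% in Cd5-/-Cd6-/- cells.

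The proportions of the genes to each other within a library were not constant. At 0 h there were 0.578 to 2.27 reads of Lyz2 per read of Slc40a1 (median 1.09), and at 4 h there were 5.41 to 11.4 (median 8.13), with no overlap between the times. Reads of Mpeg1 per read of Slc40a1 went from 0.575 to 1.13 at 0 h to 5.70 to 13.2 at 4 h, and those of Csf1r from 0.692 to 0.926 at 0 h to 1.95 to 5.94 at 4 h. At 0 h the Lyz2 proportion also moved with the library number, being 0.578 to 0.866 in the 4 libraries 2, 0.865 to 1.63 in the 4 libraries 1 and 1.21 to 2.27 in the 4 libraries 3. What a library number stands for is not given in the sources used here.

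**Figure D3:**
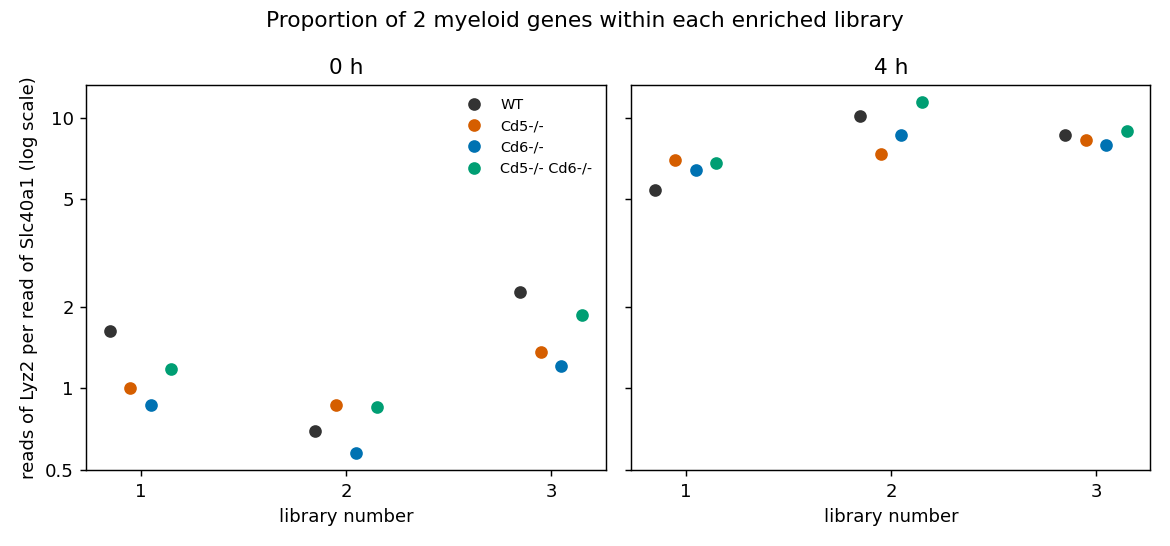
Reads of Lyz2 per read of Slc40a1 (logarithmic axis) within each enriched library at 0 h and 4 h, by library number and genotype label, 1 point per library. The 12 libraries lie at 0.578 to 2.27 at 0 h and at 5.41 to 11.4 at 4 h, and at 0 h library 2 is the lowest under each genotype label.

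Over the 12 unstimulated enriched libraries the genes moved together. The correlation of log2 CPM between pairs (given as a description over libraries that share their preparation) was highest for Slc40a1 and Csf1r (r = 0.99) and for Plbd1 and Mpeg1 (r = 0.98), and lowest for Mrc1 with Siglech (r = 0.58) and with Lyz2 (r = 0.65). Of 12437 genes whose mean was 20 reads or more, those most like the summed level of the 7 genes over the 12 libraries were Cd300a (r = 0.993), Adgre1 (0.990), Tyrobp (0.989), Asb2 (0.986), Apoe (0.984), Adgre4 (0.983), Hfe (0.980) and Fcer1g (0.978). Adgre1 encodes the macrophage antigen F4/80, Tyrobp and Fcer1g encode signaling adaptors of myeloid and NK cells, and Apoe encodes a lipid carrier made by macrophages. Over all 36 enriched libraries, at all times, the nearest gene was Igf1 for Mrc1 (r = 0.987), Ccr3 for Slc40a1 (0.989), Clec4n for Plbd1 (0.991), Gpr141 for Siglech (0.954), C1qa for Csf1r (0.995), Pla2g7 for Lyz2 (0.984) and Rnase6 for Mpeg1 (0.980), each over 12430 genes. These correlations over all times are dominated by the fall with stimulation.

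Markers of other cell types moved with the 7 genes to differing degrees at 0 h. Over the 12 libraries the summed level of a marker list correlated with that of the 7 genes at r = 0.974 for monocytes (0.941 without the 2 libraries farthest from the median), 0.961 for macrophages (0.909), 0.915 for conventional dendritic cells (0.822) 0.739 for plasmacytoid dendritic cells (0.712) and 0.680 for the general myeloid genes (0.301), whose sum is mostly Ctss, which T cells also express. The same measure was 0.867 for erythroid cells and platelets (0.723), 0.842 for NK cells (0.672), 0.818 for antigen presentation genes (0.697), 0.759 for neutrophils (0.477), 0.757 for B cells (0.648) and 0.662 for CD8 T cells (0.452). It was 0.470 for the partner genes described below (-0.0243), 0.0658 for CD4 T cells (-0.211) and -0.374 for endothelial and stromal cells (0.0551). The points share libraries and depth, and the correlations are descriptions. Lists of erythroid, NK and B cells thus also had high values, above that of the general myeloid list. Several other sums were led by genes that sorted cells also hold, by medians at 0 h in enriched and sorted cells. These were Pecam1 (251 and 264 CPM, endothelial and stromal), Cd8b1 (34.1 and 33.7 CPM, CD8 T cells) and Prf1 (53.6 and 93.7 CPM, NK cells). Cst3 (75.1 and 73.7 CPM) led the conventional and Pacsin1 (117 and 84.0 CPM) the plasmacytoid dendritic cell list.

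Between knockout and WT cells, the question is whether genotypes of one experiment carried different amounts of myeloid RNA, a contrast that did not itself choose the genes. Unstimulated levels entered the fall that chose several of them, so tests that use 0 h libraries are not fully independent of that choice. In unstimulated cells labelled Cd5-/-, Siglech had 6, 10 and 9 reads (0.162, 0.346 and 0.222 CPM), against 30, 38 and 134 reads in WT cells (0.998, 1.14 and 3.25 CPM). All 3 libraries were below all 3 WT libraries, the log2 fold change was -2.90 (SE 0.62), and the edgeR quasi-likelihood test called it at an adjusted p of 0.0290, 1 gene of 7 where 0.0619% of all genes tested were called. Over the alternatives its adjusted p lay between 0.000174 and 1.00, and the call was lost with DESeq2, with other scaling factors, with a stricter filter on low counts and without libraries 3. The other 6 genes also had values below WT, from -0.61 (SE 0.38) for Mrc1 to -1.30 (SE 0.39, adjusted p = 0.403) for Lyz2, and none was called. Lyz2 was called without libraries 1, without libraries 2 and with the library number fitted as a block, and its adjusted p ranged from 6.88e-12 to 1.00 over the alternatives. In those 3 settings 0.3%, 1.21% and 0.189% of all genes were called. The unadjusted p was under 0.05 for 6 of the 7 genes, the exception being Mrc1, and for 955 of all 32290 genes tested. The 7 genes moved together over the unstimulated libraries, so these 6 values are not independent of each other.

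This comparison rests in part on library 2 labelled Cd5-/-, in which Slc40a1 stood at 57.0 CPM, against 18.9 and 26.2 CPM in libraries 1 and 3 of that label and 35.9 to 69.4 CPM in WT cells. Lyz2 stood at 49.4 CPM in that library and at 18.9 and 35.5 CPM in the other two, and Mpeg1 at 42.1 CPM, against 14.7 and 22.1 CPM. Without the unstimulated libraries 2 labelled Cd5-/- and Cd6-/-, 6 of the 7 genes were called lower in cells labelled Cd5-/- at 0 h, where 0.652% of all genes were called. The log2 fold changes were then -1.27 for Slc40a1 (adjusted p = 0.00251), -1.53 for Plbd1 (0.0274), -3.21 for Siglech (0.00313), -1.26 for Csf1r (0.0123), -1.65 for Lyz2 (0.000376) and -1.47 for Mpeg1 (0.00216). Mrc1 was at -1.30 (adjusted p = 0.0547). With 2 libraries left under that label, the spread is taken largely from the other groups. Without all libraries numbered 2, the same 6 genes were called at 0 h. Both settings also leave out library 2 labelled Cd6-/-, which had the Cd5 and Cd6 levels of the Cd5-/- label. That library held Slc40a1 at 64.5 CPM, Lyz2 at 37.2 CPM, Mpeg1 at 37.1 CPM and Siglech at 0.448 CPM. Its part in the stronger difference was not tested.

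Other cell types moved with these genes in unstimulated cells labelled Cd5-/-. Of the 57 other myeloid genes of the lists (macrophage, monocyte, dendritic cell and general myeloid markers), 55 had values below WT, with a median log2 fold change of -0.79, and 2 were called lower (Ly6d and Spib, both also expressed in B cells). Without the libraries 2 named above 16 of the 57 were called lower, with a median of -1.31. Of the 8 B cell genes 2 were called lower (Cd79a and Pax5), with a median of -1.65, and all 8 without those libraries, and their summed level was 77.4 to 111 CPM in cells labelled Cd5-/- against 115 to 621 CPM in WT cells. Of the 8 erythroid and platelet genes 0 were called by edgeR, with 1 at an unadjusted p under 0.05, and 5 were called lower without those libraries. The median over all genes tested was 0. The part of these cell types in the difference was not tested.

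At 4 h all 7 genes again had values below WT in cells labelled Cd5-/-, with 0 called by edgeR (2 at an unadjusted p under 0.05) and 0 by DESeq2, where 0.0743% of all genes were called. The unadjusted p was under 0.05 for 1096 of all 32290 genes tested. Mpeg1 stood at 2.01, 6.43 and 3.93 CPM, against 8.00, 6.78 and 15.2 CPM in WT cells, all 3 libraries below all 3 WT libraries, and its log2 fold change of -1.27 (SE 0.39) had an adjusted p of 0.346. At 4 h the median log2 fold change was -1.39 over 8 B cell genes and -1.29 over 8 erythroid and platelet genes. It was -0.52 over the 57 other myeloid genes and -0.23 over 16 macrophage genes. In each of these lists 0 genes were called, and the part of these cell types was not tested. Without the unstimulated libraries 2 labelled Cd5-/- and Cd6-/-, the Mpeg1 difference was -1.24 and was called (adjusted p = 0.00761, 0.421% of all genes called). That setting removes no 4 h library, and the SE, from a spread shared over groups, was 0.28. With the compared groups fitted alone Mpeg1 was not called (-1.26, adjusted p = 0.183). It was called without libraries 1 (0.287% of all genes called) and with the library number fitted as a block (0.245%). Without all libraries numbered 2 the genes Lyz2, Mpeg1, Plbd1 and Slc40a1 were called lower at 4 h, where 0.724% of all genes were called. At 20 h 0 genes were called by either tool (1 at an unadjusted p under 0.05, Lyz2, with 0, 0 and 0 reads against 6, 6 and 3 in WT cells), where 0.0186% of all genes were called. Of all genes tested, 723 had an unadjusted p under 0.05 at 20 h. Without libraries 3 Lyz2 was called lower and Mpeg1 higher at 20 h under this label, where 0.154% of all genes were called.

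In cells labelled Cd6-/- 6 of the 7 genes had values above WT at 0 h and at 4 h, and 0 were called by edgeR or DESeq2 at any time, with 2, 2 and 0 genes at an unadjusted p under 0.05 at 0, 4 and 20 h. Of all genes tested, 0% were called at 0 h, 0.0031% at 4 h and 0.0186% at 20 h, and 707, 885 and 541 had an unadjusted p under 0.05. Slc40a1 shows the spread behind this, at 36.9, 64.5 and 162 CPM in unstimulated cells labelled Cd6-/-, overlapping the WT range of 35.9 to 69.4 CPM (log2 fold change 0.70, SE 0.31, adjusted p = 1.00). Without the unstimulated libraries 2 named above it was at 0.86 (SE 0.26, adjusted p = 0.382), and 0 of the 7 genes were called. Siglech was the gene below WT, at 13, 15 and 35 reads (log2 fold change -1.30, SE 0.57, adjusted p = 1.00). In Cd5-/-Cd6-/- cells 0 genes were called by edgeR or DESeq2 at 0, 4 and 20 h and 0 had an unadjusted p under 0.05, where 0.0248%, 0.0434% and 0.0434% of all genes were called. Of all genes tested, 594, 891 and 742 had an unadjusted p under 0.05. Without libraries 3 Mpeg1 was called higher in these cells at 4 h and at 20 h. The log2 fold changes at 0 h, with all libraries, lay between -0.73 (SE 0.55) for Siglech and 0.11 (SE 0.30) for Slc40a1. In these cells Slc40a1 stood at 30.1, 97.1 and 47.1 CPM, a range that includes all 3 WT values.

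**Figure D4:**
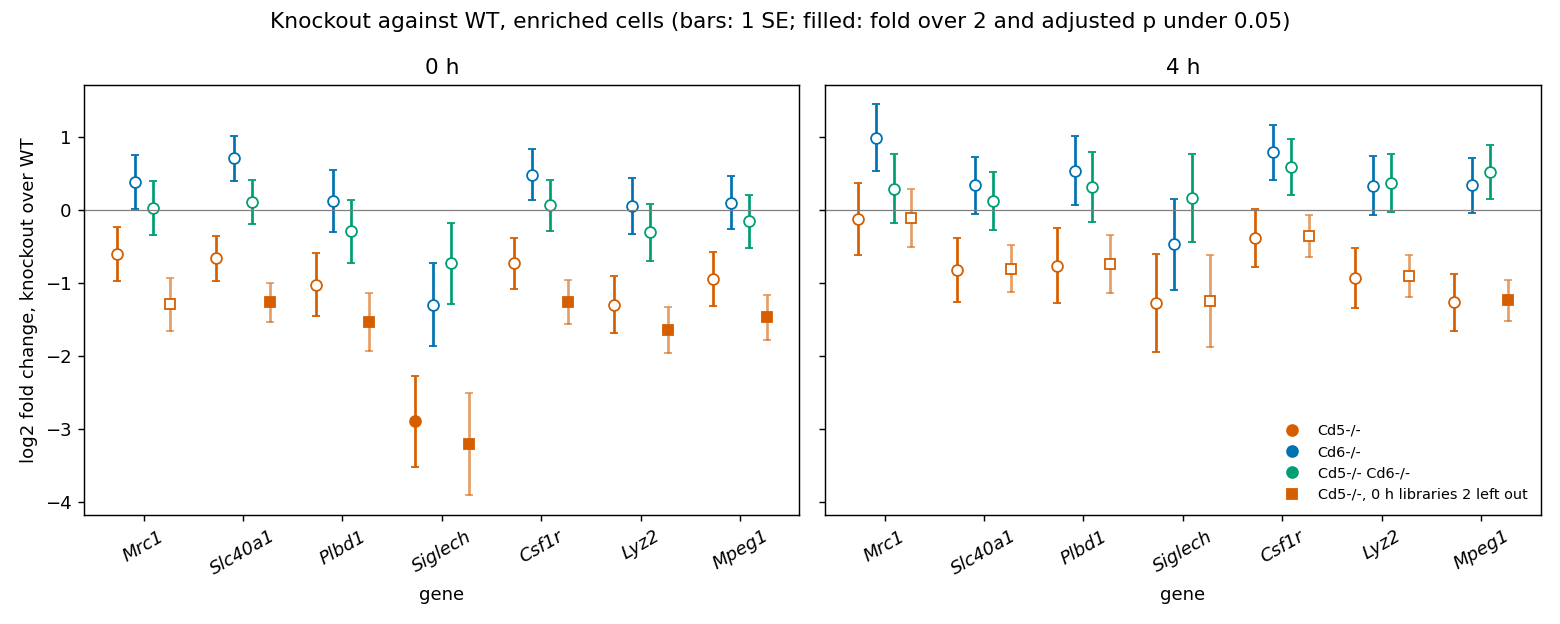
Log2 fold change of each of the 7 genes between knockout and WT enriched cells at 0 h and 4 h, by genotype label, with standard errors as bars and with and without the unstimulated libraries 2 labelled Cd5-/- and Cd6-/-. All 7 genes lie below 0 in cells labelled Cd5-/- at both times, and at 0 h they move further down without those libraries.

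In sorted cells the test compared very few reads. Mpeg1 had 3, 0 and 8 reads in Lat-/- libraries at 20 h and 0 in all 3 WT libraries, so that its level was at least 3.80-fold higher in Lat-/- cells against a floor of 3 reads over the group. It was called (log2 fold change 4.95, SE 1.72, adjusted p = 0.0129, a fitted value that depends on the zeros), 1 gene of 7, where 24.4% of all 27780 genes tested were called, so that the count does not set these genes apart. DESeq2 called 0 of the 7 genes, and the adjusted p of Mpeg1 ranged from 0.0129 to 0.344 over the alternatives, with no call without libraries 1 or without libraries 3. At 4 h Mpeg1 had 8, 4 and 2 reads in Lat-/- libraries and 0, 0 and 2 in WT libraries (adjusted p = 0.117). Of the 7 genes 0 were called at 0 h and at 4 h by edgeR or DESeq2, with 0 and 1 at an unadjusted p under 0.05, where 0.961% and 11.7% of all genes were called. Of all 27780 genes tested, 1693 and 8340 had an unadjusted p under 0.05 at 0 h and 4 h.

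The change from 0 h to 20 h was also compared between knockout and WT cells. Mpeg1 had a difference of 5.40 on the log2 scale between Lat-/- and WT cells (SE 2.05, adjusted p = 0.0338), 1 of 7 genes where 19.5% of all genes were called, from 1, 0 and 7 reads at 0 h and 3, 0 and 8 at 20 h in Lat-/- cells and from 2, 1 and 10 reads in WT cells at 0 h, whose libraries at 20 h had 0. The call was lost without any one of the library numbers and with DESeq2. In enriched cells 0 of 7 genes were called for each of the 3 labels by edgeR or DESeq2, with 1, 0 and 0 at an unadjusted p under 0.05 for Cd5-/-, Cd6-/- and Cd5-/-Cd6-/-, where 0.0031%, 0.0031% and 0% of all genes were called. Of all genes tested, 739, 670 and 559 had an unadjusted p under 0.05. The 1 of the 7 genes was Mpeg1 in cells labelled Cd5-/-, with a difference of 1.83 (SE 0.63, adjusted p = 1.00). It was called without the 2 unstimulated libraries named above, without libraries 3 and when the compared groups were fitted alone. In those settings 0.0874%, 0.0865% and 0.108% of all genes were called. The Mpeg1 difference combines the lower level at 0 h under that label with a level at 20 h of 1.08, 1.98 and 0.658 CPM, against 0.536, 0.295 and 1.26 CPM in WT cells.

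Among the other myeloid genes the fall by 20 h was broad in enriched WT cells. These genes come from lists chosen with earlier results of these data known, and the contrast is the one that chose several of the 7 genes, so the counts support nothing about them. Of the 57 genes 50 were called lower, 2 higher (Irf8 and Zbtb46) and 5 neither (Axl, Batf3, Cebpb, Cst3 and F13a1), with a median log2 fold change of -6.36 against 0 over all genes. In cells labelled Cd5-/-, in cells labelled Cd6-/- and in Cd5-/-Cd6-/- cells, 45, 50 and 48 were lower, and 41, 50 and 49 without the unstimulated libraries 2 that went against their labels. At 4 h in WT cells 43 were lower and 3 higher, with a median of -2.17.

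By cell type, 15 of 16 macrophage genes were lower at 20 h, among them Vcam1, an adhesion molecule of splenic macrophages (log2 fold change -9.47, SE 0.56), C1qa, a subunit of complement C1q (-10.79, SE 0.87), and Hmox1, the heme-degrading enzyme (-3.99, SE 0.36). Of the monocyte genes 9 of 10 were lower, among them the chemokine receptor gene Ccr2 (-5.79, SE 0.62). Of the conventional dendritic cell genes 7 of 10 were lower, among them Sirpa (-8.82, SE 0.65), whereas Cst3, which sorted cells also express, was not called (-0.24, SE 0.21). Of the plasmacytoid dendritic cell genes 7 of 8 were lower and Irf8 was higher (4.02, SE 0.30). Irf8 is a transcription factor gene that also rose in sorted WT cells, which held few myeloid reads (4.74, SE 0.18). Of the general myeloid genes 12 of 13 were lower, among them Tyrobp (-6.55, SE 0.55) and Cybb, a subunit of the phagocyte oxidase (-7.11, SE 0.46). Ctss, the highest of this list at 0 h, fell less (-1.94, SE 0.18), near its change in sorted WT cells (-1.70, SE 0.15). The 8 genes of these lists that were higher at 20 h in sorted WT cells were Axl, Cd5l, F13a1, Hmox1, Irf8, Spib, Tcf4 and Zbtb46. Hmox1 stood at 1.77 (SE 0.38) there, against its fall in enriched cells.

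Among 11 partner genes, which work with the 7 genes or are relatives of them, 5 were lower at 20 h in enriched WT cells and 1 was higher. The lower ones were Csf1, the ligand of the Csf1r receptor (-1.06, SE 0.42), Cp, a ferroxidase that works with ferroportin (-6.82, SE 1.28), the ferritin light chain gene Ftl1 (-1.57, SE 0.37), Tyrobp, named above, and Lyz1, the near-identical neighbor of Lyz2 (-7.72, SE 1.39). Tyrobp and Lyz1 are also counted in the general myeloid list. Tfrc, the transferrin receptor through which dividing cells take up iron, was higher (4.46, SE 0.20). Fth1, the ferritin heavy chain gene, was at -0.67 (SE 0.17) and Plbd2, a relative of Plbd1, at 0.76 (SE 0.15), both short of a 2-fold change, and Il34, Hamp and Heph were not called. Ftl1 stood at a median of 2.43 CPM at 0 h, against 662 CPM for Fth1. In sorted WT cells, which held few myeloid reads, 10 of the 11 were tested and 4 were lower at 20 h. These were Csf1 (-2.89, SE 0.49), Cp (-4.97, SE 1.85, from few reads), Ftl1 (-2.66, SE 0.35) and Tyrobp (-4.24, SE 0.81). Tfrc was higher there as well (4.37, SE 0.17).

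Genes of other cell types were lower at 20 h as well: 10 of 10 neutrophil genes, 8 of 8 B cell genes, 8 of 8 erythroid and platelet genes, 6 of 6 endothelial and stromal genes, 5 of 5 antigen presentation genes, 5 of 7 NK cell genes, 2 of 2 CD8 T cell genes and 3 of 9 CD4 T cell genes, where Cd28 was higher. In sorted WT cells 49 of the 57 other myeloid genes were tested, and 11 were lower and 8 higher at 20 h, where 12.7% of all genes were called lower. At 4 h 3 were lower and 8 higher, where 9.29% were called lower, and in Lat-/- cells at 20 h 4 were lower and 4 higher, where 2.07% were called lower. In unstimulated sorted cells 10 of the 57 genes were without reads, among them Cd14 of monocytes, Clec9a of dendritic cells and Mertk and Timd4 of macrophages, as were 8 of 10 neutrophil genes. The summed level of the 57 genes was still 511 to 680 CPM in these cells, against 756 to 2333 CPM in enriched cells, since it was carried by Ctss (median 346 CPM in both), Pacsin1 (84.0 against 117 CPM) and Cst3 (73.7 against 75.1 CPM), which sorted T cells express.

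The share left at 4 h differed between lists in the enriched cells. Taking medians over the 12 libraries of each time and genes whose mean was 20 reads or more at 0 h, the median share left was 9.24% over 16 macrophage genes (2.05% to 35.2%), 28.9% over 12 general myeloid genes, 32.9% over 9 monocyte genes, 38.2% over 6 conventional dendritic cell genes and 50.7% over 8 neutrophil genes. It was 18.2% over 4 endothelial and stromal genes (5.17% to 33.4%), below all myeloid lists but the macrophage one, 38.6% over 7 NK cell genes, 61.2% over 2 CD8 T cell genes, 65.6% over 5 antigen presentation genes, 66.8% over 8 B cell genes, 69.6% over 8 erythroid and platelet genes and 88.0% over 9 CD4 T cell genes. On the same scale the 7 genes kept 2.24% (Slc40a1), 5.43% (Mrc1), 10.2% (Csf1r), 14.9% (Plbd1), 19.0% (Mpeg1), 20.6% (Lyz2) and 37.1% (Siglech). Of the 7 genes, 6 lay within the range of the macrophage genes, and Siglech lay above it. Most of the 7 also lay within the ranges of monocyte (6.96% to 197%) and conventional dendritic cell genes (8.27% to 72.3%). The same held for general myeloid genes (11.6% to 230%) and for endothelial and stromal genes. Siglech lay below the median of 5 plasmacytoid dendritic cell genes (70.1%), a list in which Irf8 stood higher at 4 h. Those 5 genes were Ly6d and Spib, both also expressed in B cells, and Pacsin1, Tcf4 and Irf8, which sorted cells also held. Klk1, Cox6a2 and Cd300c had too few reads at 0 h to enter. These shares are descriptions without a test.

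**Figure D5:**
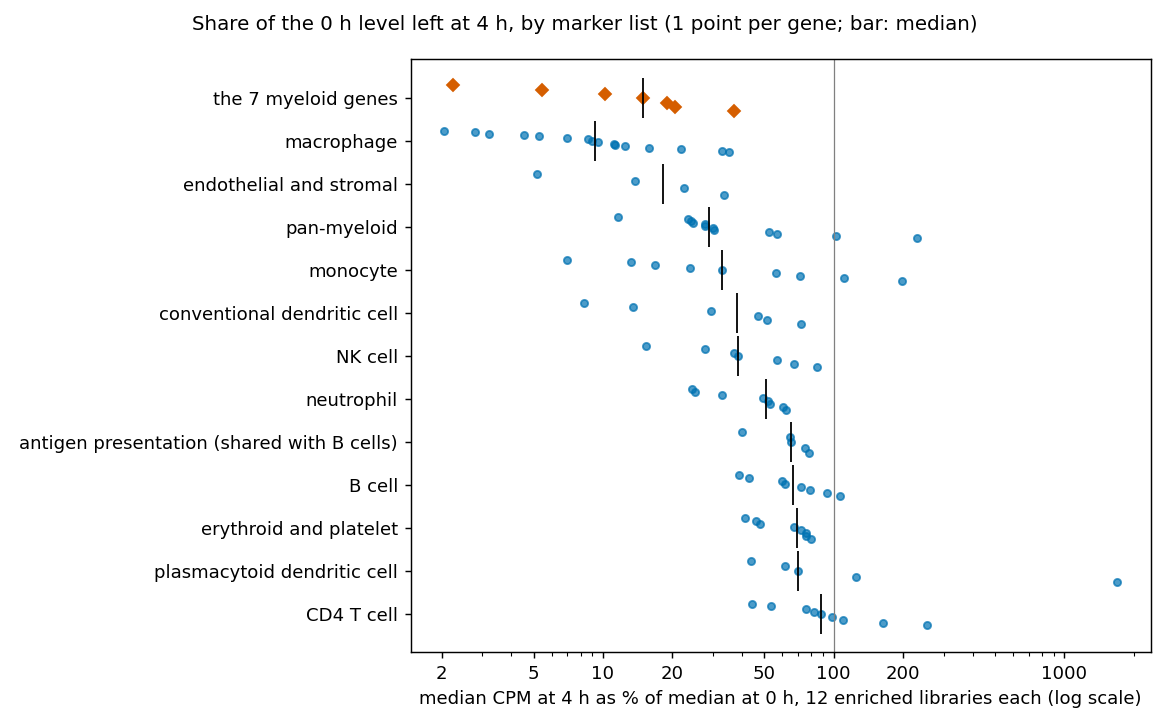
Share of the unstimulated level left at 4 h in enriched cells (percent, logarithmic axis) for genes of each marker list, 1 point per gene with a bar at the median. The 7 myeloid genes have a median of 14.9%, the macrophage genes 9.24%, the B cell genes 66.8% and the CD4 T cell genes 88.0%.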

How the data were processed

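The authors sequenced stranded poly(A) RNA libraries (TruSeq Stranded mRNA, single reads), demultiplexed them with bcl2fastq 2.17.1.14, aligned reads to GRCm38/mm10 with STAR and deposited raw featureCounts counts per gene, 1 table per experiment. The annotation release and the strand and multimapping settings are not given in the sources used here. Of 55385 gene IDs, 55144 were named with GENCODE. Each table was fitted on its own with edgeR 4.0.16 (TMM factors, genes with at least 1 read, 1 coefficient per genotype and time, glmQLFit and glmQLFTest, two-sided), and p-values were adjusted by Benjamini-Hochberg over 32290 and 27780 genes. Genes were called at a fold change over 2 and an adjusted p under 0.05. DESeq2 1.42.0, RLE factors, library totals, filterByExpr, a replicate block, fits of the compared groups alone and leaving out libraries were alternatives. The pipeline was checked on simulated counts. Log CPM used a prior count of 2, and the floor was 3 counts. No pair of replicates agreed within sampling noise (lowest chi-square divided by its degrees of freedom, 3.02).

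The 7 genes and the gene lists were chosen with earlier results of these data known. Named genes are the 7, up to 4 genes per list by level at 0 h, and the genes most correlated with them. Partner genes, genes called against the trend of their list and genes without reads were named after their values were seen.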

Additional observations from a re-analysis of the deposited data

Results flagged for a closer look

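The change of Mpeg1 between 0 h and 20 h differed between Lat-/- and WT sorted cells by 5.40 on the log2 scale (SE 2.05, adjusted p = 0.0338, edgeR). The value was picked out because a test of the difference itself passed the threshold. It rests on 8 and 11 reads over 3 Lat-/- libraries at 0 h and 20 h and on 13 and 0 reads over 3 WT libraries, and 19.5% of all genes passed the same threshold.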

How the results depend on the processing

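For knockout against WT enriched cells, 1 of 63 values was called. The count was 0 with DESeq2, with RLE factors, with library totals alone and with filterByExpr, 3 with a replicate block (Siglech, Lyz2 at an adjusted p of 0.0129 and, at 4 h, Mpeg1 at 0.00949, all lower in cells labelled Cd5-/-), 3 to 10 when 1 library number was left out (10 without libraries 2, 4 without libraries 3), and 7 without the unstimulated libraries 2 labelled Cd5-/- and Cd6-/-. For Lat-/- against WT cells, 1 of 21 was called, 0 with DESeq2 and 0 to 1 when 1 library number was left out. For the difference of the 20 h response in the LAT experiment, 1 of 7 was called, 0 with DESeq2, 0 with the replicate block and 0 when any library number was left out. For that in the CD5/CD6 experiment, 0 of 21 were called, 1 when the compared groups were fitted alone, 1 without the libraries 2 named above and 0 to 1 when 1 library number was left out. The cause of these moves was not tested. Shares left at 4 h and 20 h and counts of other myeloid genes under the knockout labels without these libraries 2 are given in the text as an alternative chosen after seeing the data. In the LAT experiment filterByExpr kept none of the 7 genes, so it gave no value. The enriched over sorted ratio of 353.6 was 127.8 from mean log2 levels. No result reversed, and the count of other myeloid genes lower at 20 h stayed within 1.5 times of 50 under all alternatives.

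Same-numbered libraries tended to deviate together (mean correlation of deviations 0.335, from 0.0744 to 0.626, in the CD5/CD6 experiment and 0.174, from 0.00143 to 0.329, in the LAT experiment, against -0.165 and -0.0847 for different numbers). No label says what a number marks and not every pair passed 0.1, so the numbers were not taken as pairs. As a hint from the data, a library correlated best with its own number in 50 of 54 and 13 of 18 cases. Depth limits Siglech in enriched cells, all 7 genes in sorted cells and all but Mpeg1 in enriched cells at 20 h. In sorted cells and at 20 h most libraries are at or under 3 reads, except for Mpeg1 in enriched cells (8 to 80 reads).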
